A study of Caenorhabditis elegans with 2 samples.

Results

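The proteasome subunit genes of Caenorhabditis elegans were examined for promoter sites recovered with tagged JUN-1, the worm counterpart of mammalian JUN, which forms part of the AP-1 transcription factor. They were taken as all protein-coding genes of the WBcel235 annotation whose symbol starts with pas-, pbs-, rpt- or rpn-, which gave 33 of 19973 protein-coding genes. The core particle is encoded by 14 of them, the alpha ring genes pas-1 to pas-7 and the beta ring genes pbs-1 to pbs-7. The other 19 encode subunits of the regulatory particle, of which 6 are ATPase genes (rpt) and 13 are genes of subunits without ATPase activity (rpn). Chromatin came from whole L4 larvae of strain OP234, genotype unc-119(ed3) III; wgIs234, with an eGFP-tagged jun-1 transgene, both sexes pooled, and jun-1 named as the antibody target. Both replicates belong to this 1 group, so no condition was compared, and the question is where near these genes the tagged protein was found. The labels give neither the promoter of the transgene nor its copy number, and they do not say whether the replicates came from separate cultures, so differences between them may be technical. Whole animals were used, so a site present in a few cells and a weak site in many cells cannot be told apart.

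The proteasome degrades proteins that carry ubiquitin chains. Its barrel-shaped core holds the proteolytic beta subunits between rings of alpha subunits, which gate the entrance. The regulatory particle caps the core, binds and deubiquitinates substrates, and unfolds them with a ring of ATPases. In C. elegans the transcription factor SKN-1A, processed by the glycanase PNG-1 and the protease DDI-1, raises the expression of many subunit genes when proteasome function is impaired. JUN-1 is a basic leucine zipper protein.

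A promoter summit here is the highest point of a deposited peak region inside the promoter window, which begins 1000 bp before each annotated transcript start of a gene and ends 200 bp after it. The list called from both replicates together held 13085 regions, peaks and background alike, of which the 899 strongest had passed the authors' reproducibility threshold. The lists of replicates 1 and 2 held 19396 and 23742 regions. Each region has a signal, which is the peak caller's own value of unstated scale, so it ranks sites within a list and is not a read count. The joint signal ran from 16.8 to 564 and the lowest reproducible one was 49.6. Read depth is unknown.

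Most proteasome subunit genes had a promoter region in the joint list, but few had a strong one. In the joint list, 21 of the 33 genes had a promoter summit (63.6%, 95% exact binomial interval 45.1 to 79.6), against 24.7% of all protein-coding genes. Only 3 of the 33 had a summit past the reproducibility threshold, which is 9.09% (1.92 to 24.3), against 3.35% of all protein-coding genes, a share that lies inside that interval. These were rpn-3, rpn-11 and pas-5. A joint summit with a deposited q-value of at most 0.05 lay at 6 of 33 (18.2%, 6.98 to 35.5), against 6.47% of all protein-coding genes. The intervals cover counting error over genes only, and genes are not replicates of a condition. Among genes with a joint summit, the median signal of the strongest one was 27.9 for the 21 subunit genes and 24.7 for all 4924 genes. None of the 33 genes lies on X, which held 193 of the 899 reproducible peaks. Among the 17242 autosomal genes, 24.2% had a joint summit and 3.39% a reproducible one.

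**Figure D1:**
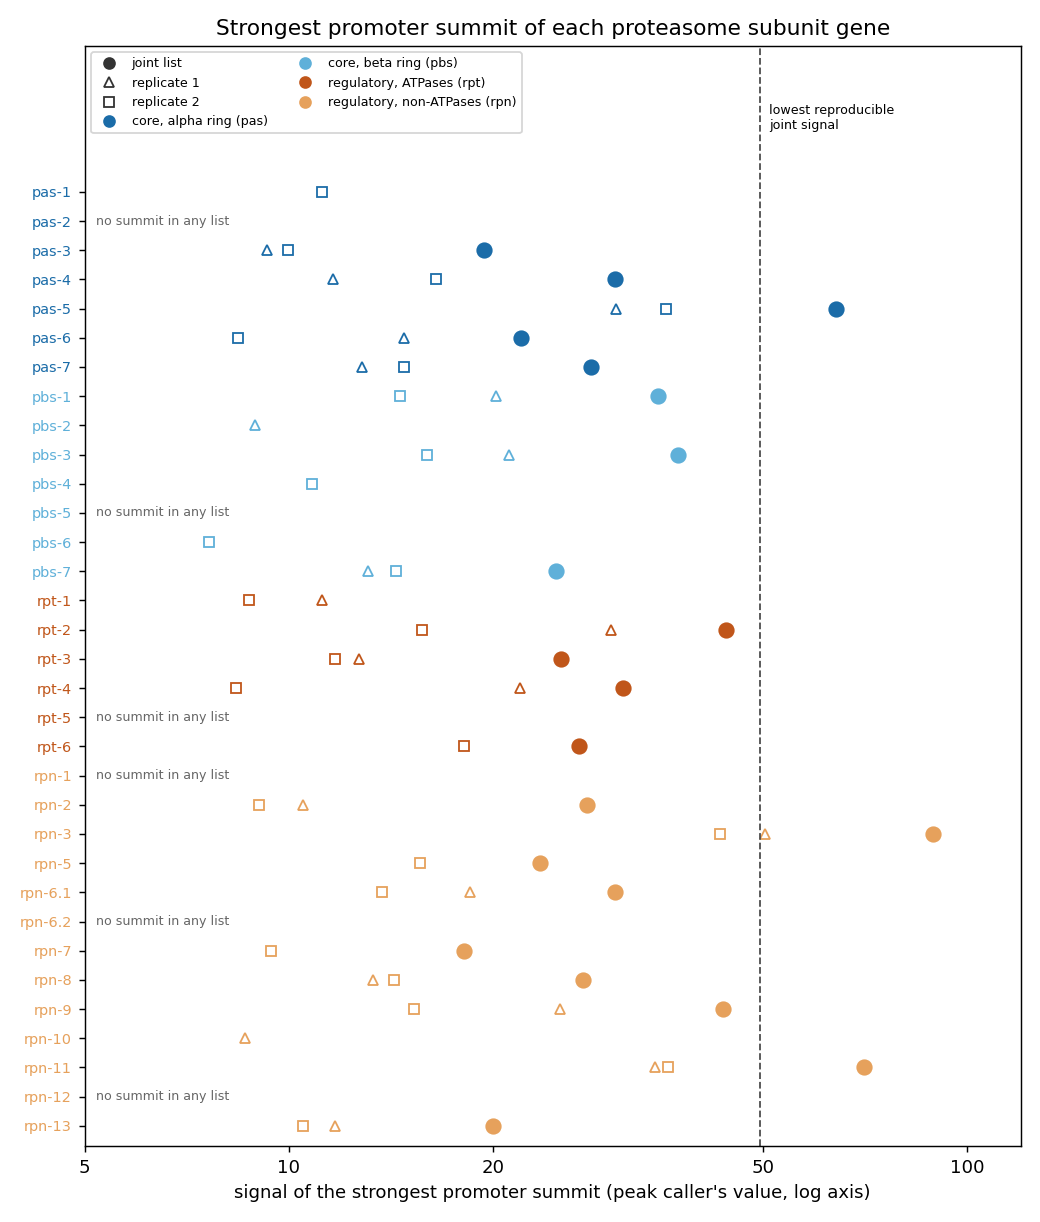
Signal of the strongest promoter summit (horizontal log axis, the peak caller's value) for each of the 33 subunit genes, with the joint list as filled circles, replicate 1 as open triangles and replicate 2 as open squares. Only rpn-3, rpn-11 and pas-5 lie right of the dashed line at 49.6, and 6 genes have no summit in any list.

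The strongest site belonged to the regulatory particle gene rpn-3, which encodes a scaffold subunit of the lid. Its signal was 89.0 in the joint list (rank 238), 50.4 in replicate 1 (rank 168) and 43.3 in replicate 2 (rank 279), so it stood high in both. The summit lay 211 bp upstream of the rpn-3 start, in the intergenic stretch of 443 bp that separates rpn-3 from hsp-110, which is transcribed the other way and encodes a chaperone of the Hsp110 family. The same summit lies in the promoter window of hsp-110, and the peak lists do not say which gene it serves.

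Second was rpn-11, which encodes the deubiquitinating enzyme of the lid. The joint signal was 70.6 (rank 412), with 34.7 in replicate 1 (rank 466) and 36.2 in replicate 2 (rank 454). The replicate summits were 9 bp apart, and no other protein-coding gene's window held the joint summit, which lay 51 bp downstream of the nearest start in an annotated 5' untranslated region of rpn-11.

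Next was the alpha ring gene pas-5, with 64.1 in the joint list (rank 510), 30.4 in replicate 1 (rank 644) and 36.0 in replicate 2 (rank 462). Its summit lay 993 bp upstream of the start, at the outer edge of the window and inside the snoRNA gene F25H2.15. It was the only one of the 21 with a small RNA gene within 250 bp of its summit. A further joint summit 319 bp upstream of pas-5 had a signal of 16.9. Without peaks that close to a small RNA gene (a setting added once the values were known), 2 of 33 subunit genes (6.06%) had a reproducible summit, against 3.08% of all protein-coding genes.

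Just below the threshold stood the ATPase gene rpt-2, with a joint signal of 44.1 (rank 1185). It had 29.9 in replicate 1 (rank 664) and 15.7 in replicate 2 (rank 3561), so this site stood high in replicate 1 and much lower in replicate 2. The lid subunit gene rpn-9 showed the same order, with 43.7 in the joint list, 25.1 in replicate 1 (rank 1013) and 15.3 in replicate 2 (rank 3821). Then came the beta ring genes pbs-3, with 37.5 in the joint list, 21.1 in replicate 1 and 16.0 in replicate 2, and pbs-1, with 35.0, 20.2 and 14.6 in the same lists. The catalytic caspase-like subunit is encoded by pbs-1. These 4 sites were close to the starts, at 105, 242, 92 and 156 bp upstream. The summit of pbs-3 fell in the 3' untranslated region of ulp-2, whose end lies 22 bp from pbs-3 on the same strand.

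The bases around the summits of 6 of these genes are given because they differ in a short sequence described further on. Each stretch covers the joint summit and 50 bases to either side, in the direction of the proteasome gene, from the WBcel235 (ce11) genome. Capitals mark GAANNTTC (part of a heat shock element) in rpn-3, TGACNNNGC overlapping TTGTCAT in rpt-2, and TTGTCAT on either strand in pbs-1, rpt-4 and rpn-6.1. The rpn-9 stretch held none of the sequences searched.
rpn-3 (chrIII:8447092-8447192, plus strand): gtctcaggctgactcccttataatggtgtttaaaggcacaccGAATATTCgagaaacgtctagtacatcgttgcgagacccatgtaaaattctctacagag
rpt-2 (chrV:6017724-6017824, minus strand): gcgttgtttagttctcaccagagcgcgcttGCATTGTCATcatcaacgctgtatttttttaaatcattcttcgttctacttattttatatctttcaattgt
rpn-9 (chrII:11239111-11239211, minus strand): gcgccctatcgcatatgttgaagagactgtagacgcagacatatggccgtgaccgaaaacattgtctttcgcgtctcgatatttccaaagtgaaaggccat
pbs-1 (chrIV:1709851-1709951, minus strand): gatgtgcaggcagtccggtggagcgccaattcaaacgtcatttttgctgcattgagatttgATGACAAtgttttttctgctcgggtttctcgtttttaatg
rpt-4 (chrII:43784-43884, minus strand): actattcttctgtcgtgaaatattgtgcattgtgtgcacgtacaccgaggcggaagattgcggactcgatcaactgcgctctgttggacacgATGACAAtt
rpn-6.1 (chrIII:6961264-6961364, minus strand): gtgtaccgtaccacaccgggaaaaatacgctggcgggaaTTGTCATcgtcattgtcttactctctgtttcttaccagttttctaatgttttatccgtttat

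In the alpha ring, 5 of 7 genes had a joint summit. After pas-5 came pas-4 with 30.3, pas-7 with 27.9, pas-6 with 22.0 and pas-3 with 19.4. The site of pas-4 had 11.6 in replicate 1 (rank 8227) and 16.5 in replicate 2 (rank 3084). That of pas-6 had 14.8 in replicate 1 (rank 4098) and 8.42 in replicate 2 (rank 17825), the opposite order. The weakest, pas-3, had its joint summit in its own coding sequence, 100 bp downstream of the start, and its replicate summits were 394 bp apart. Of the remaining genes, pas-1 had a weak region in replicate 2 only (11.2, rank 8820), and pas-2 had a summit in none of the lists.

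In the beta ring, which holds the peptidase sites, 3 of 7 genes had a joint summit and none a reproducible one. These were pbs-3, pbs-1 and, as the weakest, pbs-7 with 24.8. Regions in a single replicate list were found for pbs-2 (8.91 in replicate 1), pbs-4 (10.8 in replicate 2) and pbs-6 (7.62 in replicate 2). The gene of the chymotrypsin-like subunit, pbs-5, had none in any list, and its nearest joint summit was 1147 bp from the start. It begins 110 bp after K05C4.2 on the same strand.

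Of the 6 ATPase genes, 4 had a joint summit, led by rpt-2. They were followed by rpt-4 with 31.1, rpt-6 with 26.8 and rpt-3 with 25.2. The widest gap between replicates was at rpt-4, with 21.9 in replicate 1 (rank 1413) and 8.35 in replicate 2 (rank 18166), although the summits were 1 bp apart. The rpt-4 site lies within an intron of its longer annotated transcript, 172 bp upstream of an inner start, and is nearest to the start of nfyc-1, which encodes a subunit of the CCAAT-binding factor NF-Y. At rpt-6 a region was listed in replicate 2 alone (18.1). The replicate regions of rpt-1 were 274 bp apart, with 11.2 in replicate 1 and 8.72 in replicate 2, and rpt-5 had none in any list.

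Of the 13 non-ATPase genes, 9 had a joint summit. Below rpn-3, rpn-11 and rpn-9 came rpn-6.1 with 30.3, rpn-2 with 27.5 and rpn-8 with 27.2, then rpn-5 with 23.5, rpn-13 with 20 and rpn-7 with 18.1. A lid subunit that clamps the core and the lid together is encoded by rpn-6.1, and a ubiquitin receptor by rpn-13. The summit of rpn-6.1 lay in an intron of its longer transcript, 374 bp upstream of an inner start. For rpn-5 and rpn-7 the only replicate region was in replicate 2. The genes rpn-1, rpn-6.2 and rpn-12 had no summit in any list, and rpn-10, which encodes a ubiquitin receptor, had 8.62 in replicate 1 only. Of the paralogues rpn-6.1 and rpn-6.2, only rpn-6.1 thus had a listed promoter region.

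Core and regulatory particle had overlapping intervals in these lists. A joint summit was present at 8 of 14 core genes (57.1%, 28.9 to 82.3) and 13 of 19 regulatory genes (68.4%, 43.4 to 87.4). A reproducible one was present at 1 of 14 (7.14%) and 2 of 19 (10.5%). Median joint signals were 29.1 for the core and 27.5 for the regulatory particle among genes with a summit, a difference on the log2 scale of 0.08. The same difference was -0.26 in replicate 1 and 0.04 in replicate 2. Medians taken on the log2 scale correspond to signals of 13.1 and 15.7 in replicate 1, and 14.4 and 14 in replicate 2. The sign thus changed between the replicate lists. The difference was also negative in the joint list with windows from 500 bp upstream (-0.14), and with genes without a summit set to the lowest joint signal (-0.28). No test was made, since genes of 1 complex are not replicates.

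**Figure D2:**
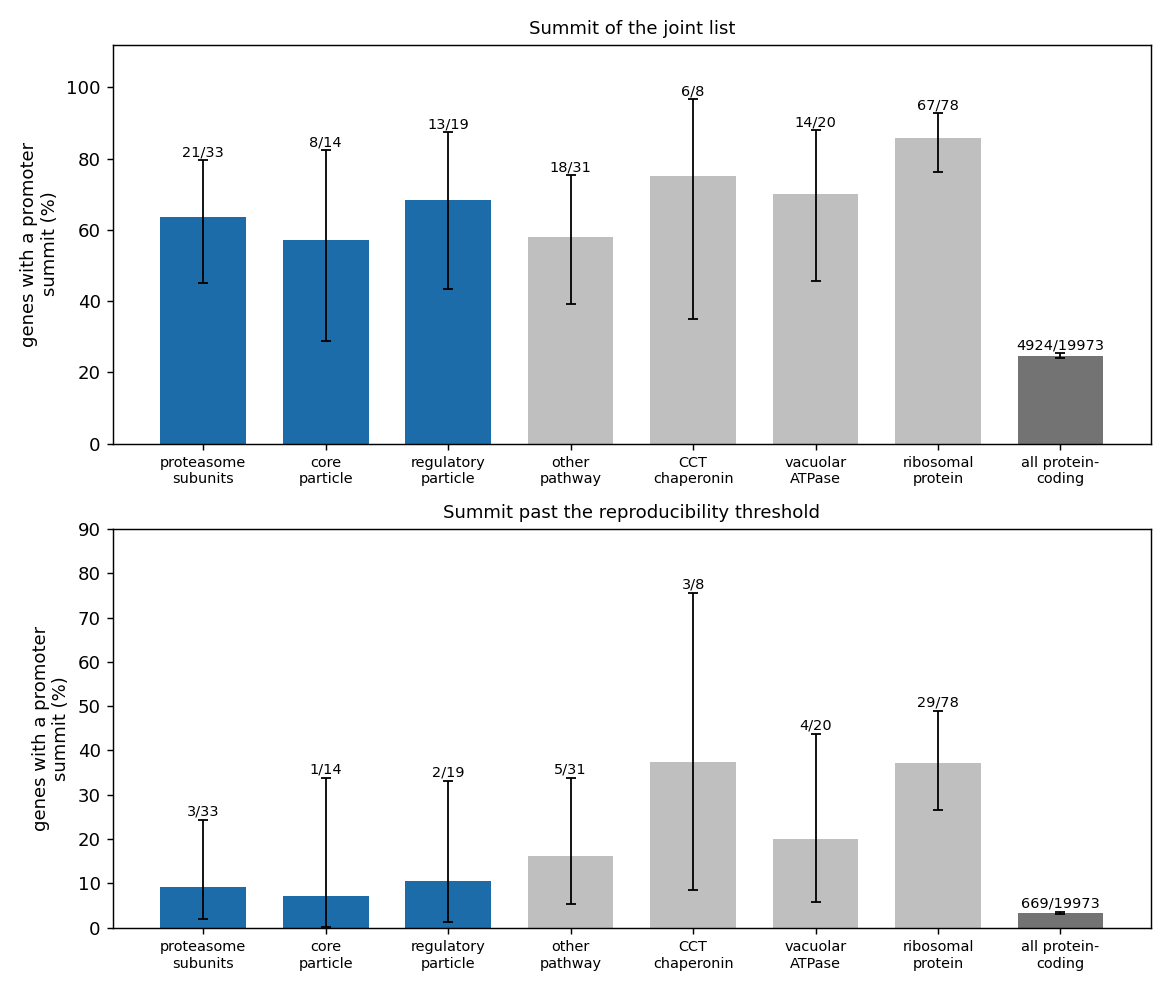
Share of genes (percent, vertical axis) with a promoter summit in the joint list (upper panel) and past the reproducibility threshold (lower panel), with exact binomial 95% intervals as bars and counts above. The subunit genes stand at 63.6% and 9.09%, against 24.7% and 3.35% of all protein-coding genes.

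Other large complexes give a scale for these counts. A reproducible site was present at 3 of 33 proteasome subunit genes, 3 of 8 CCT chaperonin genes, 4 of 20 vacuolar ATPase genes and 29 of 78 rpl and rps ribosomal protein genes. For joint summits the counts were 21 of 33, 6 of 8, 14 of 20 and 67 of 78. Over all protein-coding genes the shares were 3.35% for reproducible sites and 24.7% for joint summits. In the same order of families, the nearest protein-coding start was another gene's at 5 of 21, 5 of 6, 4 of 14 and 30 of 67 joint summits. By that count, assignment was less certain for the chaperonin and ribosomal protein genes. Summits that also lay in another protein-coding gene's window were 15 of 21, 5 of 6, 4 of 14 and 44 of 67. By this second count, assignment was no more certain for the proteasome than for ribosomal protein genes. Median joint signals were 27.9 for the proteasome, 48.7 for the chaperonin, 23.4 for the vacuolar ATPase and 45.6 for ribosomal protein genes. The interval of the share with a reproducible site ran from 1.92 to 24.3% for the proteasome and from 26.5 to 48.9% for ribosomal protein genes. The intervals of the chaperonin (8.52 to 75.5%) and the vacuolar ATPase (5.73 to 43.7%) overlapped that of the proteasome. No difference between families was tested.

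Elsewhere in the ubiquitin pathway, the site of cdc-48.1 was stronger than any subunit site in the joint list and in both replicates. Of 31 other genes, 18 had a joint summit (58.1%) and 5 a reproducible one (16.1%), against 24.7% and 3.35% of all protein-coding genes. Among the 31 is dss-1, which encodes a subunit that the choice by symbol left out and had no joint summit. The strongest summit was that of cdc-48.1, which encodes the segregase ATPase that extracts ubiquitinated proteins. It had a joint signal of 270, with 127 in replicate 1 and 143 in replicate 2. Next was ubql-1, a ubiquilin shuttle gene whose summit also lies in the window of pdi-3, with 90.6 in the joint list, 40.3 in replicate 1 and 52.5 in replicate 2. That site was above rpn-3 in the joint list (89.0) and in replicate 2 (43.3), but below it in replicate 1 (50.4). The ubiquitin conjugating enzyme gene let-70 had 63.8, at a summit that also lies in the window of klc-1. The cullin genes cul-3 and cul-4 had 57.3 and 56.9. The polyubiquitin gene ubq-1 (36.0) and the ubiquitin fusion gene ubq-2 (joint rank 980, shared with frg-1) had joint summits below the threshold. Of the genes known to act with SKN-1A, skn-1 had 25 in the joint list and the protease gene ddi-1 had 20.8, while the glycanase gene png-1 had no summit in any list. The shuttle gene rad-23, which lies 394 bp from rpn-12 and is transcribed the other way, had none either.

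Replicate summits of most subunit genes with both lay close together, while their ranks differed more. Summits of both replicates were found at 19 of 33 genes (57.6%), against 20.4% of all protein-coding genes. The gap between their closest pair had a median of 30 bp and a range from 1 to 394 bp, against a median of 57 bp over the 4065 protein-coding genes with both. The pair was within 100 bp at 15 of the 19, against 2614 of the 4065. Over all genes, with or without both summits, that is 15 of 33 (45.5%), against 13.1% of all protein-coding genes. All 21 genes with a joint summit had one in replicate 2, and 18 of them also in replicate 1. Across the 19 genes, replicate signals had a Spearman correlation of 0.605 and a Pearson correlation of log2 values of 0.77, against 0.583 and 0.73 across those 4065 genes. Without the 3 reproducible genes they were 0.338 and 0.39 over 16 genes. The correlations describe genes in shared libraries and carry no p-value. Of the 19, 12 ranked better in replicate 1 and 7 in replicate 2, against 2294 and 1763 of all genes with both. The list of replicate 2 is longer, so ranks in it can run higher. All 4 ATPase genes with both values ranked better in replicate 1, and 4 of the 5 such alpha ring genes in replicate 2.

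**Figure D3:**
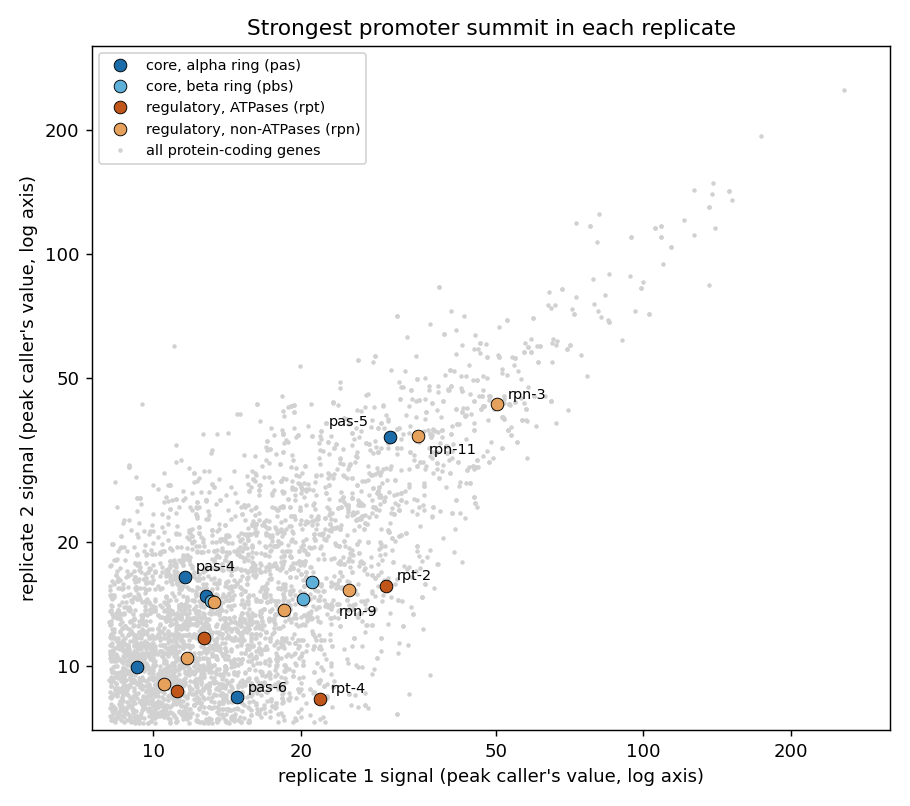
Strongest promoter summit in replicate 1 (horizontal) and replicate 2 (vertical), both log axes of the peak caller's value, for the 19 subunit genes with both (coloured) and all 4065 protein-coding genes with both (grey). The genes rpn-3, rpn-11 and pas-5 lie highest in replicate 2 (36.0 to 43.3), and rpt-4 (8.35) and pas-6 (8.42) lie lowest there.

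Summits lay mostly a short way upstream. Of the 21 joint summits, 19 were upstream of the nearest start of their gene, 17 of them within 500 bp, and the median was 221 bp upstream, against 240 bp over all 4924 genes. The exceptions upstream were pas-5 and rpt-3, at 993 and 713 bp. Sequence outside protein-coding genes held 14 of the 21, 3' untranslated regions of the upstream neighbour held 3, introns of the gene itself 2, and a 5' untranslated region and a coding exon 1 each. The rpt-3 site was 1 of the 3 in a neighbour's 3' untranslated region, that of chtb-2, and rpn-13 was another, with its summit in C56G2.9.

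**Figure D4:**
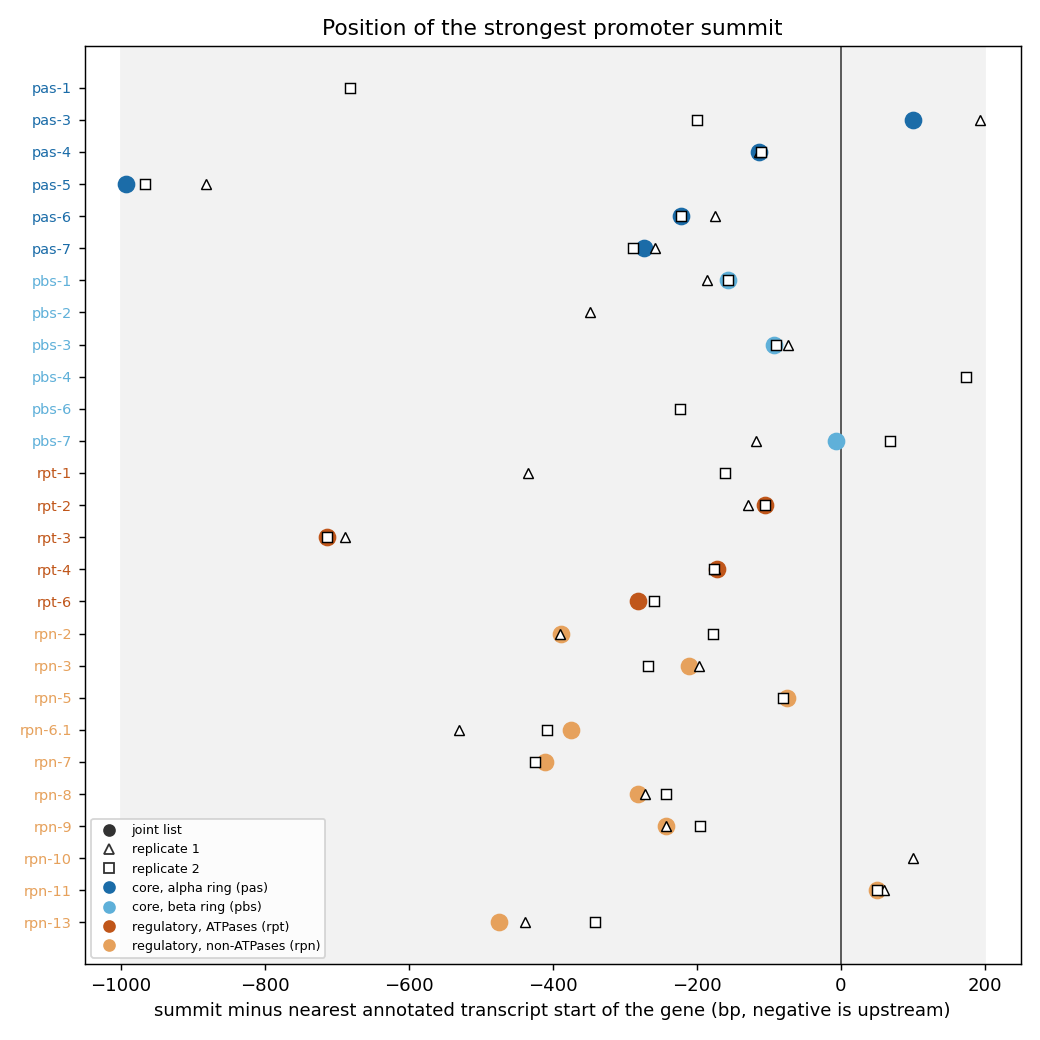
Distance (bp, horizontal axis, negative upstream) of the strongest promoter summit from the nearest transcript start for the 27 subunit genes with a summit in any list, joint list as filled circles, replicate 1 as triangles and replicate 2 as squares. Most joint summits lie within 500 bp upstream, with replicate marks beside them, and pas-5 stands at the window's outer edge.

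Divergent gene pairs were common among the subunit genes. The nearest upstream protein-coding gene was transcribed the other way within 1000 bp at 20 of 33 (60.6%), against 17.5% of all protein-coding genes. With such a neighbour, 14 of 20 subunit genes (70%) had a joint summit, against 35.7% of all 3503 such genes. With a same-strand neighbour within 500 bp the counts were 4 of 8 (50%), against 25.1% of 3612 genes, and with neither 3 of 5 (60%), against 21.5% of 12858. The subunit share was above that over all genes in each class. Its interval was 45.7 to 88.1% for divergent, 15.7 to 84.3% for same-strand and 14.7 to 94.7% for the remaining genes. Only the first excluded the share over all genes. The widths follow the 20, 8 and 5 genes, so the intervals do not tell the classes apart. Reproducible sites were at 1 of 20 divergent subunit genes (5%), against 6.97% of all divergent genes, at 1 of 8 with a same-strand neighbour (12.5%), against 2.46%, and at 1 of 5 with neither (20%), against 2.61%. With 1 gene in each class, the intervals (0.127 to 24.9, 0.316 to 52.7 and 0.505 to 71.6%) contained the share over all genes. The neighbourhoods were defined after earlier values were seen.

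Shared summits limit what can be assigned to the proteasome gene. Of the 21 joint summits, 15 also lay in another protein-coding gene's window, against 1531 of the 4924 over all protein-coding genes. With a divergent upstream neighbour, 14 of 14 subunit summits were shared, against 1141 of 1250 over all such genes. Sharing was thus common at divergent genes of any kind. The partners included the RNA polymerase II subunit gene rpb-3 at pas-4, the cohesin gene scc-1 at rpn-5, the clathrin adaptor gene aps-1 at rpt-2 and the mitochondrial ribosomal protein gene mrps-6 at rpn-8. For 5 of the 21 (pas-7, rpt-4, rpn-2, rpn-7 and rpn-8) the nearest start was that of the other gene, against 883 of the 4924. With each summit given to its nearest start only, 16 of 33 had a joint summit (7 core and 9 regulatory), against 20.6% of all protein-coding genes. Counting starts of every gene class, 9 of 21 were nearer to another gene, among them rpn-3 and rpt-2, whose nearest starts belong to the non-coding RNA genes C30C11.14 and F29G9.10.

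One short sequence recurred at the subunit summits. TTGTCAT, which is a form of the known binding site of SKN-1, was searched on either strand within 50 bp of each summit. It was present at 7 of 21 subunit genes (33.3%). Over all joint summits in promoter windows it was at 120 of 5027 (2.39%), and over reproducible ones at 7 of 519 (1.35%). The 7 genes were pas-6 and pbs-1 in the core (2 of 8) and rpt-2, rpt-4, rpn-6.1, rpn-7 and rpn-11 in the regulatory particle (5 of 13). Of the 7, only rpn-11 had a reproducible summit, and only rpt-2 and rpn-11 had one with a q-value of at most 0.05. The other summits with the sequence may be background, which the joint list also holds. Its centre was 8 bp from the joint summit at rpn-6.1, 14 bp at pbs-1 and rpt-2, 23 bp at rpn-11 and 47 bp at rpn-7. At rpn-6.1 the replicate summits were 122 bp apart, so the 8 bp holds for the joint summit only. The sequence was chosen after 11 of the 21 windows had been read, of which 5 held it. These counts are therefore a description, and no interval is given for them. In the 10 windows not read before, it was present in 2 (20%).

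In promoters from 250 bp before to 50 bp after the gene start, TTGTCAT was present in 8 of 33 subunit genes (24.2%), against 7.02% of all protein-coding genes. The copies in pas-6, pbs-1 and rpt-2 are among those read before the sequence was chosen. This share is therefore also a description and not a separate check. Of the 8, 5 had a joint summit (pas-6, pbs-1, rpt-2, rpn-2 and rpn-11) and 3 had none (pas-2, pbs-6 and rpn-12). The sequence was thus also found where no joint region was listed, at 3 of 12 such genes and 5 of the 21 others. In pas-2 it lay 108 bp upstream of the start and in rpn-12 132 bp upstream. Binding by SKN-1 was not measured here.

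The other 7 sequences searched were at few subunit summits. GAGAGA was within 50 bp of 2 of 21 (9.52%, pas-3 and pas-7), against 14.9% of all joint promoter summits. TGANTCA, the AP-1 site, was at 0 of 21, which allows a share of up to 16.1% by the exact interval, against 4.52%. TGACGTCA, CACGTG and TGATAA were also at 0 of 21, against 0.935%, 2.73% and 11.9%. TGACNNNGC, the core of an antioxidant response element, was at rpt-2 only, against 2.39%, and GAANNTTC at rpn-3 only, against 5.43%. The intervals of all 7 shares over these 21 windows contained the share over all promoter summits. The median GC content of the windows was 41.6% at subunit summits and 39.6% over all promoter summits. In the 300-base promoters TGANTCA was present at pas-6 and rpt-1, 2 of 33 (6.06%), against 10.4% of all protein-coding genes. TGACNNNGC was present at 5 of 33 (15.2%, interval 5.11 to 31.9), against 5.18%. Those 5 were pas-5, pbs-7, rpt-2, rpt-5 and rpn-6.2. Promoter shares were 18.2% against 21.8% for GAGAGA, 3.03% against 1.53% for TGACGTCA and 3.03% against 5.84% for CACGTG. They were 15.2% against 18.6% for GAANNTTC and 30.3% against 30.3% for TGATAA.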

How the data were processed

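Chromatin immunoprecipitation sequencing of eGFP-tagged JUN-1 was done on 2 samples of whole L4 larvae, numbered as biological replicates in the labels. The deposited lists used here, on ce11, hold 1 joint list, its reproducible subset and 1 list per replicate. In each list, column 7 is a signal given by the authors' peak caller and column 9 a −log10 q-value, per the deposited files' standard narrow-peak layout. The aligner, the caller, their versions and the use of the possible control are unstated in the labels and files. Read depth is unknown, so no count test was possible. Lists on ce10 were not used, and controls were not analysed here.

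The strongest summit was placed with Python 3.11.15, numpy 2.4.6 and scipy 1.17.1 on WBcel235 (Ensembl release 115), the same assembly as ce11. Figures used matplotlib 3.10.9. Placing was tested on simulated peaks: 200 of 200 inside the window were found, and 0 of 200 upstream and 0 of 200 downstream. Exact binomial intervals (95%) reflect counting error over genes. Medians, counts and correlations are descriptions.

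The members and lists were chosen with earlier results of these data known. Named members are those with a reproducible summit, the 10 strongest, those without a joint summit, and the strongest and weakest of each subcomplex. The other 7 members were named to account for every gene. Pathway genes named are those with a reproducible summit or among the 6 strongest, while ubq-1, skn-1, ddi-1, png-1 and rad-23 were added with their values known. The settings varied were the window, the threshold, the assignment of summits, the distance between replicate summits and the replicate used. TTGTCAT and the class of the upstream neighbour were also added after the data were seen.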

Additional observations from a re-analysis of the deposited data

How the results depend on the processing

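Of 38 alternative values, 33 stayed within 1.5 times the reported count or, for the core minus regulatory difference, within 0.17, and 5 did not. That 0.17 matches the standard deviation of the 2 values with either replicate left out, not of those in the full replicate lists. The value without replicate 1 counted as within it although its sign was the opposite. With the strongest 2000 joint peaks in place of the reproducible ones, 6 genes had a summit in place of 3, against 6.60% of all protein-coding genes. The core minus regulatory difference in median log2 joint signal, 0.08 as reported, was -0.14 with windows from 500 bp upstream and -0.28 with genes without a summit set to the lowest joint signal. It was -0.08 without replicate 1 and -0.32 without replicate 2, settings that kept 19 and 18 genes. In the full lists of replicates 2 and 1, with 25 and 21 genes, it was 0.04 and -0.26. The sign with replicate 2 alone thus depended on how many regions were kept. When a summit counted for the nearest start alone, the difference was 0.00. Its direction is therefore not fixed by these data. Counting starts of every gene class, 9 summits in place of 5 were nearest to another gene. The causes were not tested. With 1 replicate left out, reproducibility cannot be assessed. The counts that stood in its place ran from 3 to 4, rpt-2 being the fourth without replicate 2. In place of joint summits, the counts ran from 18 to 19 over all subunit genes, from 7 to 9 for the core and from 10 to 11 for the regulatory particle. Reproducible summits fell to 2 genes with windows from 500 bp upstream, where pas-5 was lost. No paired analysis was possible because the series has 1 group.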
